A study of Mus musculus with 24 samples.

Results

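The response of bone marrow macrophages to an inflammatory supernatant was measured on 8 of the 24 arrays of the series, 4 from macrophages given the supernatant and 4 from macrophages kept in RPMI media. The arrays were chosen by their titles alone, and every gene with a probe set of a single symbol was compared, 19938 in all. The other 16 arrays came from 2 epithelial lines of the mouse reproductive tract, C57epi.1 and Bm12.4, treated alike, and were used only to show where the macrophages differed. Per the labels, the macrophages were derived from femur bone marrow of C57BL/6 mice with GM-CSF, a growth factor that also yields dendritic-type cells from marrow. The supernatant was conditioned RPMI, given at 33% (v/v), in which CD4 T cells of a Chlamydia-specific clone had been kept with an infected epithelial monolayer, and interferon-gamma was brought to 4 ng/ml. Both groups shared the same base medium with serum, and neither is labelled as infected. The duration of treatment, the age of the mice and whether the 4 arrays of a group came from separate cultures are not stated in the labels, and p-values therefore reflect just how far these arrays spread, which may be technical.

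Macrophages respond to interferon-gamma through a receptor of a pair of chains and Janus kinases, and promoters of its target genes are known to carry a short palindromic element (GAS). Genes such as Irf1 carry the signal on, and interferon regulatory factors bind a second element (ISRE) shared with the type I interferon response. In macrophages this programme is known for antimicrobial GTPases, nitric oxide synthesis, antigen presentation and the chemokines that attract activated T cells. The supernatant also held whatever else the T cells and infected epithelial cells released, so the comparison is of a mixture with media.

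The 8 arrays had medians from 5.05 to 5.19 on the log2 scale, and no pair held identical values. Across genes, arrays of a group correlated at 0.992 to 0.996, and arrays of different groups at 0.974 to 0.98. Supernatant and media arrays parted on the first principal component of these 8 arrays (68.6% of variance), and the second held 9.49%. The median standard deviation (SD) of a gene over 4 arrays was 0.142 in supernatant and 0.13 in media.

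The labelled cell type was checked against marker lists. The mean level of 19 macrophage and monocyte markers lay between 9.86 and 10.14 in the treated arrays and between 9.87 and 9.98 in media, against 4.67 to 5.03 over all arrays of both epithelial lines. Single markers moved under that mean: limma called 4 of the 19 higher and 5 lower, 3 and 3 of these at least 2-fold. Over all genes tested 7.77% were called higher and 9.79% lower. Adgre1, of this list, was not called in the main fit over the 8 arrays, but was in the fit over 24 arrays (−0.41, adjusted p = 0.0333). It was also called lower with replicates 1-2 and 3-4 as a block (0.0353) and within replicates 1 and 2 (−0.675, 0.0065). The same held after quantile normalization (0.0418), with array weights (0.0387) and without supernatant replicate 4 (0.0251). Csf1r, the receptor for the macrophage growth factor, read 11.87, 11.97, 11.90 and 11.96 in supernatant and 12, 12.10, 12.26 and 12.11 in media. These arrays did not overlap, and Csf1r was called lower after quantile normalization (−0.29, adjusted p = 0.0201) but not in the main fit. Cd68, a lysosomal membrane protein of macrophages, read 13.14 to 13.43 and 13.18 to 13.27. The integrin chain Itgax, shared with dendritic cells, read 11.66 to 12.23 and 12.04 to 12.39. The T and NK cell markers had mean levels of 3.91 to 4.02 in supernatant and 4.03 to 4.13 in media, against 3.74 to 3.97 in the lines, and Cd3e read 4.60 to 4.90 in supernatant and 4.90 to 5.06 in media. Of these 25 markers, limma called 0 higher (0 at an unadjusted p under 0.05) and 2 lower, Cd28 (by 1.66) and Il17a (by 0.29). Epithelial markers had 0 of 15 called by limma and 0 at an unadjusted p under 0.05, with mean levels of 4.60 to 4.81 and 4.60 to 4.71. In bulk RNA, fewer cells of a type and less RNA per cell cannot be told apart.

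The supernatant changed 3500 of 19938 genes, or 17.6%, at an adjusted p under 0.05 (limma, Benjamini-Hochberg adjustment over all genes tested). Of these, 1549 rose (7.77%) and 1951 fell (9.79%). The order of these counts turned with arrays centred on their medians (1673 higher and 1488 lower) and within replicates 3 and 4 (1172 and 1011). Past 2-fold the rises were more numerous: 419 genes rose at least 2-fold (2.1%) and 254 fell at least 2-fold (1.27%). In 1860 genes all 4 treated arrays lay above all 4 media arrays (9.33%), and in 2260 they lay below (11.3%). The median difference over all genes was −0.02. All 3500 called genes had the same sign within replicates 1 and 2 as within replicates 3 and 4. The difference over 8 arrays is the mean of those within the pairs, so this was largely set by the choice of called genes.

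**Figure D1:**
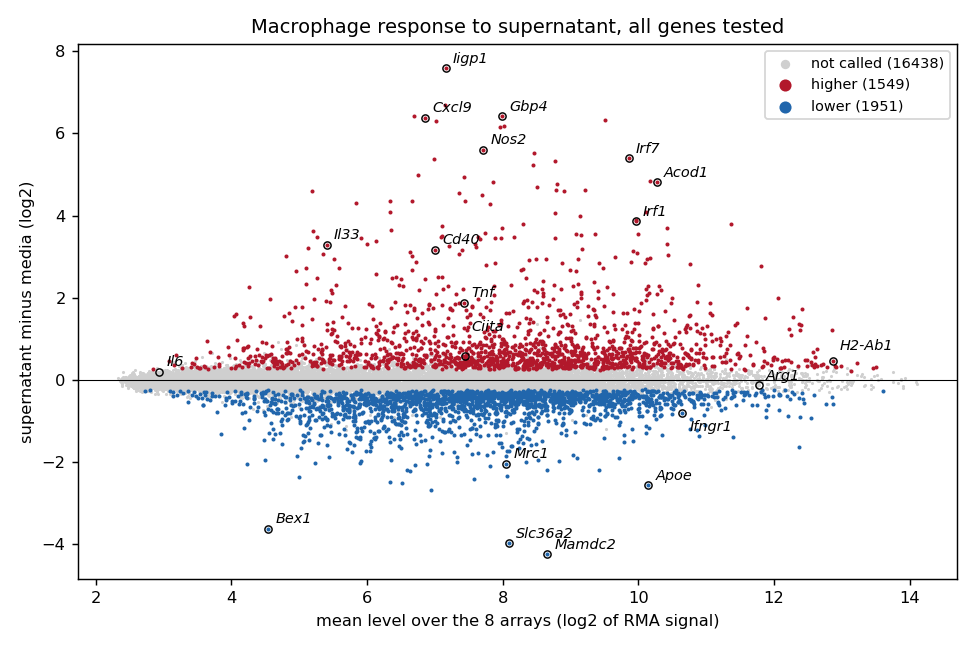
Each point is a gene, placed by its mean level over the 8 arrays (x axis, log2 of the RMA signal) and its difference, supernatant minus media (y axis, log2). Red points were called higher (1549), blue points called lower (1951) and grey points not called (16438). The largest rise was 7.59 (Iigp1) and the largest fall 4.26 (Mamdc2).

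Most of the 12 largest rises were of genes known to be induced by interferons. Iigp1, an immunity-related GTPase that acts on the vacuoles of intracellular microbes, read 3.48, 3.20, 3.41 and 3.37 in media and 10.76, 10.84, 11.05 and 11.15 in supernatant, a difference of 7.59 ± 0.11 (SE, 4 arrays a group, adjusted p = 3.44e-12). Its arrays lay close together within each group, and no treated array came near a media array. Ms4a4c, a tetraspanning membrane protein, rose by 6.42 ± 0.20, from 3.23 to 3.80 in media to 9.44 to 10.39. The guanylate-binding proteins Gbp4 and Gbp5 rose by 6.42 ± 0.19 and 6.17 ± 0.13. Cxcl9, a chemokine for activated T cells, rose by 6.39 ± 0.23, and Ifi205, of the interferon-inducible p200 family, by 6.31 ± 0.17. The translation-blocking proteins Ifit2, Ifit3 and Ifit1 rose by 6.32 ± 0.14, 6.16 ± 0.18 and 5.51 ± 0.12. Nos2, the inducible nitric oxide synthase, rose by 5.60 ± 0.32, the transcription factor Irf7 by 5.39 ± 0.23 and Ms4a6b by 5.38 ± 0.28.

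The 12 largest falls were of genes with varied roles. Mamdc2, an extracellular proteoglycan, read 10.54, 10.62, 10.93 and 11.04 in media and 6.32, 5.98, 7.42 and 6.39 in supernatant, a fall of 4.26 ± 0.25 (adjusted p = 3.05e-07). Slc36a2, a proton-coupled amino acid transporter, fell by 3.98 ± 0.29, and Bex1 by 3.63 ± 0.20. Igfbp4, which binds insulin-like growth factors, fell by 2.69 ± 0.11. Apoe, the lipid carrier that macrophages secrete, read 10.66, 10.96, 12.35 and 11.75 in media and 8.54, 9.03, 9.09 and 8.79 in supernatant, a fall of 2.57 ± 0.30, and its media arrays spread over more than its treated arrays. Epas1, a hypoxia-inducible factor subunit, fell by 2.48 ± 0.26, the calcium-binding protein S100a4 by 2.41 ± 0.16, the transporter Abca9 by 2.38 ± 0.16 and the tubulin-binding protein Stmn1 by 2.35 ± 0.32. Ccn3, a matricellular protein, fell by 2.23 ± 0.25, the sorting receptor Sort1 by 2.20 ± 0.08 and Tmem273 by 2.19 ± 0.34.

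**Figure D2:**
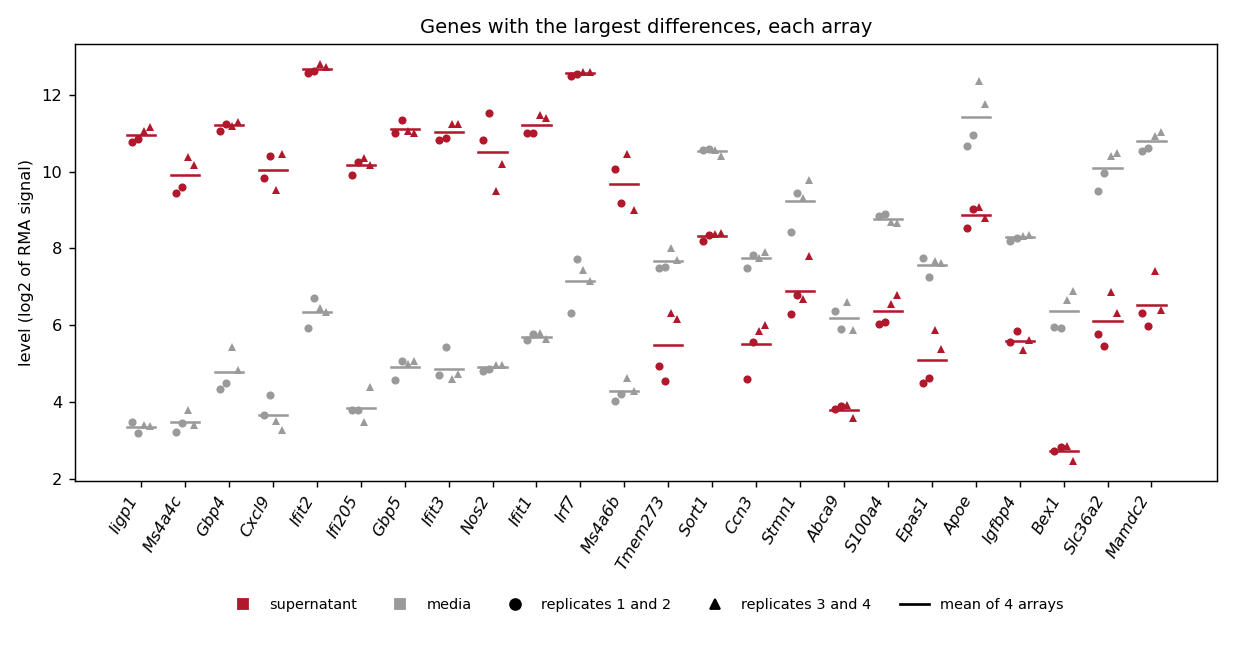
The 12 largest rises and 12 largest falls, in order of their difference. The y axis is the level on the log2 scale of the RMA signal; red marks are supernatant arrays and grey marks media arrays, circles replicates 1 and 2 and triangles replicates 3 and 4, and each line is the mean of 4 arrays. The genes were chosen among those whose groups do not overlap. Tmem273, Epas1 and Nos2 show treated circles and triangles apart.

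Genes of the interferon receptor and signalling list rose more often than they fell, with 18 of 31 measured members higher and 2 lower (median difference 0.65). The counts of this and later lists stand against 7.77% called higher and 9.79% called lower over all genes tested. The receptor chains did not follow: Ifngr1, the ligand-binding chain, read 10.90, 10.87, 11.22 and 11.20 in media and 10.16, 10.10, 10.45 and 10.28 in supernatant and fell by 0.80 ± 0.11 (adjusted p = 0.00041). Ifngr2, the accessory chain, differed by 0.17 ± 0.08 and was not called (adjusted p = 0.202). Irf1, a transcription factor induced by interferons, read 7.78, 7.99, 8.32 and 8.01 in media and 11.80, 11.95, 11.88 and 11.94 in supernatant, a rise of 3.87 ± 0.11. The treated arrays lay close together and far above every media array. Stat2, a transcription factor of the type I pathway, rose by 2.94 ± 0.10, the kinase Jak2 by 1.32 ± 0.11 and Batf2, a leucine zipper factor of activated macrophages, by 3.45 ± 0.09. Inhibitors of the pathway rose with it, Socs1, which binds Janus kinases, by 2.09 ± 0.11 (8.33 to 8.37 in supernatant and 5.91 to 6.48 in media) and Usp18, which restrains type I receptor signalling, by 3.52 ± 0.16. Socs2, a related inhibitor, was called lower by 0.61 (adjusted p = 0.0497) with overlapping arrays. Its call was lost on leaving out each array other than supernatant replicate 2, and 1 member of the list, Ifngr1, was then lower. Transcripts of the type I interferons Ifnb1 (−0.01) and Ifna4 (−0.07) were not called.

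The promoters of 7 genes of these groups are shown because the elements named above lie in them. Each is the 250 bases before the RefSeq start of the gene on GRCm38.p6, 5′ to 3′ on the gene's strand, with matches to GAAA, any 2 bases and GAAA on either strand (ISRE) and to TTCNNNGAA (GAS) in capitals. Irf1 (chr11:53769764-53770013, plus strand) holds a GAS match whose first base is 90 bases before the start. Gbp5 (chr3:142496684-142496933, plus strand) holds 1 ISRE and 2 GAS matches. Irgm1 (chr11:48871421-48871670, minus strand) and Socs1 (chr16:10785537-10785786, minus strand) hold 2 ISRE matches each, which overlap. Ifit1 (chr19:34640639-34640888, plus strand) and Ifit3 (chr19:34583279-34583528, plus strand) hold 2 ISRE matches each that do not overlap. Cxcl10 (chr5:92348890-92349139, minus strand) holds 1 ISRE match.
Irf1: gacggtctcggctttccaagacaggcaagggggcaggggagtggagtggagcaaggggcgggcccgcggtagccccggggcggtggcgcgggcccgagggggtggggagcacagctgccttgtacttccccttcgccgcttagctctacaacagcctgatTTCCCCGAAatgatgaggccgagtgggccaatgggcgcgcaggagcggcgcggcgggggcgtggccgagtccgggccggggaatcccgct
Gbp5: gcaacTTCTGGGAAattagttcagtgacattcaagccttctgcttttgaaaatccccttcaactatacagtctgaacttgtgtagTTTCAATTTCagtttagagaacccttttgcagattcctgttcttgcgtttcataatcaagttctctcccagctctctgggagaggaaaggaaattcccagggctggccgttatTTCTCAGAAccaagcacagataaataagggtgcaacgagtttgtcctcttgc
Irgm1: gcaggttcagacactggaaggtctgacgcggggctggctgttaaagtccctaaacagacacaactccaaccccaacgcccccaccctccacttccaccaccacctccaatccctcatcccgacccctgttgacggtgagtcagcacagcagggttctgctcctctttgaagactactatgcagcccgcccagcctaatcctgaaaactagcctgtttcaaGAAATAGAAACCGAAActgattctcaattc
Ifit1: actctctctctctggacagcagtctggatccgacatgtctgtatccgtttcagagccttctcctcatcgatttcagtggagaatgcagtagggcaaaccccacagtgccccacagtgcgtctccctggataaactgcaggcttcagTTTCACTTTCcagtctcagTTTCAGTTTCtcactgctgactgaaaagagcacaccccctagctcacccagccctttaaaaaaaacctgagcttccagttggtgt
Ifit3: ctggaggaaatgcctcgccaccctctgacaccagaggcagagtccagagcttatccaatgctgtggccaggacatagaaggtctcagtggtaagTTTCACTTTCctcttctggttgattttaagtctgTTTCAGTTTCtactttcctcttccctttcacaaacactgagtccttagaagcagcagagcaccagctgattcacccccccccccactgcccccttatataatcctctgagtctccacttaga
Cxcl10: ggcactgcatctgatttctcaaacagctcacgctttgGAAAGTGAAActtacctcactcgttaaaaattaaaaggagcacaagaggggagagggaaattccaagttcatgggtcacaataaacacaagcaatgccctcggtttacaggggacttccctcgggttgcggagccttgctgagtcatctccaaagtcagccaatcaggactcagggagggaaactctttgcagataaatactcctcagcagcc
Socs1: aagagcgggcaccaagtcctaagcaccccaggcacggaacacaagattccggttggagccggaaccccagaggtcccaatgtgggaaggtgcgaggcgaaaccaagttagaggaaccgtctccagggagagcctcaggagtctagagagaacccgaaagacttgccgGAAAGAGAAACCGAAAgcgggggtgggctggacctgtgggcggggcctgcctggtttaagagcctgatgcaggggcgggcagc
Over the 15614 tested genes with a promoter in the RefSeq table, 3.4% held the ISRE letters and 7.71% the GAS letters in this window. Of the 323 such genes that rose at least 2-fold, 17% held the ISRE and 12.7% the GAS letters. Of the 204 that fell at least 2-fold, 4.9% and 7.84% did. Below 2-fold, 5.32% and 8.03% of the 921 called higher did, and 2.21% and 6.85% of the 1401 called lower. A gene counted if any of its windows held a match, and the tested genes had 1.23 windows each on average. In the guanylate-binding protein and GTPase list 5 of 5 genes with a promoter, out of 11 measured, held an ISRE match. In the antiviral list 13 of 40 (32.5%) did. The shares were lower in the interferon receptor and signalling list (3 of 27, 11.1%), class II presentation (1 of 11, 9.09%) and class I presentation (1 of 15, 6.67%). A match is a string of letters and not a measured binding site.

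All 11 measured guanylate-binding proteins and immunity-related GTPases rose, 10 of them at least 2-fold, with a median difference of 4.27. The list held 19 genes, and the others were not analysed here. These GTPases gather on membranes around intracellular bacteria and parasites. Beside Iigp1, Gbp4 and Gbp5, Gbp2b rose by 4.36 ± 0.12 and Irgm1, a regulator of the family, by 4.09 ± 0.11 (7.81, 8.18, 8.06 and 8.22 in media and 12.08, 12.11, 12.36 and 12.09 in supernatant). Irgc1 had the smallest rise of the list, 0.68. The count of 11 was the same under every alternative run. Members of this family, and of the Ifit, p200, Ms4a, Slfn and MHC families below, have similar sequences, and the share of a signal that comes from a relative is uncertain.

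The antiviral interferon-stimulated genes changed almost as a block: 47 of 51 measured members rose and 1 fell, with a median of 2.81, and 46 or 47 rose under every alternative run. Rsad2, which makes a chain-terminating nucleotide, read 7.42, 7.94, 7.89 and 7.77 in media and 12.31, 12.59, 12.82 and 12.68 in supernatant, a rise of 4.84 ± 0.14. The transcript of Mx1 rose by 4.5 ± 0.20, and that of Oas3, a sensor of double-stranded RNA, by 4.68 ± 0.23. Media replicate 1 was the lowest of the media arrays for Rsad2, Mx1 and Oas3, and remained far below every treated array. A second member was called lower without supernatant replicate 3 or 4. The member that fell over all arrays was Ifi27, by 2.01 ± 0.12 (9.05 to 9.51 in media and 7.08 to 7.51 in supernatant). Ifitm6 (−0.72), Ifitm2 (−0.15) and Ifi44l (−0.05) were not called.

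The measured MHC class I genes rose together, while the classical class II genes moved little from a high level. Of 21 measured class I presentation and immunoproteasome genes 19 rose and 0 fell (median 1.72; 0 lower at an unadjusted p under 0.05 in limma). The list held 27 genes, and the other 6, all heavy chains, were not analysed here. Tap1, a subunit of the peptide transporter, read 8.40, 8.76, 8.72 and 8.82 in media and 11.43, 11.55, 11.55 and 11.51 in supernatant, a rise of 2.84 ± 0.10. The catalytic subunits Psmb9 and Psmb8 of the immunoproteasome rose by 2.19 and 1.88, the class I genes H2-Q4 and H2-T24 by 2.96 and 2.95, and Nlrc5, the class I transactivator, by 1.22. B2m, the shared light chain, rose by 0.32 from 13.27 to 13.44. Calr and Mr1 were not called.

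Of 15 measured class II presentation genes 8 rose and 0 fell, and the median difference was 0.43. H2-Ab1, the class II beta chain, read 12.34, 12.57, 12.70 and 12.94 in media and 13.19, 13.25, 12.95 and 12.97 in supernatant, a rise of 0.45 ± 0.13 (adjusted p = 0.0289). Cd74, the invariant chain, read 12.15, 12.27, 12.43 and 12.50 in media and 12.91, 12.91, 12.47 and 12.75 in supernatant, a rise of 0.42 ± 0.12 (adjusted p = 0.0276). The treated and media arrays of Cd74 overlapped, and those of H2-Ab1 all but touched. Both lost the call with the replicate block (adjusted p = 0.0627 and 0.0611), after quantile normalization (0.0691 and 0.121), in the fit over 24 arrays (0.549 and 0.606) and when any of several arrays was left out. For H2-Ab1 these were supernatant replicate 1 (adjusted p = 0.0793) or 2 (0.0835) and media replicate 1 (0.0738), 2 (0.0795) or 3 (0.0528). For Cd74 they were supernatant replicate 1 (0.0824), 2 (0.0807) or 4 (0.0553) and media replicate 1 (0.0779) or 2 (0.0769). Within replicates 3 and 4 the differences were 0.14 for H2-Ab1 and 0.15 for Cd74. Ciita, the class II transactivator, read 7.02 to 7.37 in media and 7.59 to 7.85 in supernatant and rose by 0.57 ± 0.10 (adjusted p = 0.00221). H2-Oa, a chain of the peptide-editing inhibitor H2-O, had the largest rise of the list, 1.83 ± 0.21, and H2-Ob, its partner, rose by 0.79 ± 0.17. The count of 8 fell to 5 without supernatant replicate 1 or 2 or media replicate 1 or 2, with the replicate block and after quantile normalization, to 4 in the fit over 24 arrays and to 3 within replicates 3 and 4.

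T cell costimulation, inhibition and adhesion genes had 19 of 33 measured members higher and 3 lower (median 0.68). Cd40, the receptor for T cell help, read 5.58, 5.37, 5.32 and 5.42 in media and 8.53, 8.86, 8.37 and 8.59 in supernatant, a rise of 3.17 ± 0.11. Cd86, a ligand of CD28, rose by 2.68 ± 0.12, while its relative Cd80 rose by 0.49 ± 0.07 (6.21 to 6.36 in media and 6.74 to 6.77 in supernatant). Ligands of the inhibitory receptor PD-1 rose as well, Cd274 by 1.5 ± 0.10 and Pdcd1lg2 by 1.84 ± 0.13. The largest rises of the list were of Slamf8 (3.55), Cd69 (3.51), Cd40 and Tnfsf15 (3.16), and Icam1, an adhesion ligand, rose by 1.30 ± 0.18. The members that fell were the inhibitory ligand Vsir (by 1.13), the adhesion molecule Cd48 (by 1.04) and Cd276 (by 0.61).

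Chemokines moved in both directions: 10 of 32 measured members rose and 3 fell. Transcripts for ligands of CXCR3, a receptor of activated T cells, were among the rises. Cxcl10 read 5.36, 5.22, 4.76 and 4.96 in media and 9.10, 9.93, 9.62 and 9.84 in supernatant, a rise of 4.55 ± 0.18, and Cxcl11 rose by 0.83. Ccl2, a monocyte attractant, rose by 4.35 ± 0.25 and Ccl5, an attractant of T cells and monocytes, by 3.79 ± 0.21. The neutrophil attractants Cxcl1 (−0.20), Cxcl2 (−0.01) and Cxcl3 (0.84) were not called. Cxcl14 fell by 1.84, and the platelet-type chemokines Ppbp and Pf4 fell by 1.21 and 1.17. Of 17 chemoattractant receptors 2 rose and 4 fell, with the fractalkine receptor Cx3cr1 down by 1.43 ± 0.10, Cxcr4 by 1.4 ± 0.12, the complement receptor C5ar1 by 1.11 ± 0.20 and Ccr2 by 0.80. Ccr7, which directs cells to lymph nodes, read 9.56, 10.04, 8.15 and 8.85 in supernatant and 7.06, 8.06, 8.25 and 7.65 in media, so that the groups overlapped. It was called higher by 1.4 ± 0.36 (adjusted p = 0.0194), and not without supernatant replicate 1 (0.0564), media replicate 1 (0.0568) or media replicate 4 (0.0519), where 1 receptor of the list was then higher.

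Of 34 measured cytokines 12 rose and 0 fell. Tnf read 7.10, 6.58, 6.09 and 6.2 in media and 8.44, 8.59, 8.75 and 7.70 in supernatant, a rise of 1.88 ± 0.25 (adjusted p = 0.000249). Il12b, the subunit shared by 2 cytokines that steer T cells, read 4.10, 4.51, 5.03 and 4.08 in media and 6.43, 6.98, 5.81 and 6.93 in supernatant, a rise of 2.11 ± 0.27. Il27 rose by 1.20 ± 0.14 and Il15 by 1.82 ± 0.16. The death ligand Tnfsf10 (TRAIL) rose by 4.31 ± 0.17. Antagonists rose too, Il18bp, which binds IL-18, by 2.98 ± 0.13 and Il1rn, the IL-1 receptor antagonist, by 2.00 ± 0.20. Il6 read 2.72 to 3.12 in media and 2.86 to 3.37 in supernatant and was not called (0.20, adjusted p = 0.398). Neither were Il1b (0.51, adjusted p = 0.173), which was called without supernatant replicate 4 (0.73, adjusted p = 0.0218), nor Il10 (−0.17, adjusted p = 0.364). Among 32 cytokine receptors 8 rose and 5 fell. Il12rb1, a receptor chain for IL-12, rose by 3.75 ± 0.15, its partner Il12rb2 by 1.53 ± 0.25 and Il15ra by 2.45 ± 0.13, while the receptors Tgfbr1 and Tgfbr2 fell by 0.90 and 0.68.

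Enzymes that make nitric oxide and itaconate rose steeply, and the other arginine and tryptophan enzymes did not move alike. Of 17 measured members of the list 6 rose and 1 fell. Nos2 read 4.82, 4.87, 4.97 and 4.97 in media and 10.83, 11.52, 9.5 and 10.19 in supernatant. Acod1, the enzyme of itaconate synthesis, read 7.96, 8.09, 7.70 and 7.72 in media and 12.65, 12.76, 12.56 and 12.72 in supernatant, a rise of 4.81 ± 0.10. Gch1, which makes the cofactor of Nos2, rose by 1.52 ± 0.14, the arginine transporter Slc7a2 by 0.92 ± 0.11 and the tryptophanyl-tRNA synthetase Wars by 1.64 ± 0.10. Arg1, which draws on the same arginine, read 11.91, 11.17, 12.32 and 11.98 in media and 12.25, 11.49, 12.03 and 11.06 in supernatant and was not called (−0.14, adjusted p = 0.826). Ido1, which degrades tryptophan, read 3.68, 3.79, 4.92 and 4.54 in supernatant and 4.56 to 4.72 in media and was not called (−0.40, adjusted p = 0.307). It was called lower without supernatant replicate 3 (−0.63, adjusted p = 0.0317) and within replicates 1 and 2 (−0.885, adjusted p = 0.0025). Each of these brought the falls of the list to 2. The 8 measured subunits and regulators of the phagocyte NADPH oxidase had 0 calls in limma and 1 gene at an unadjusted p under 0.05, the organising subunit Ncf1 (−0.20). Cybb, the catalytic subunit, read 13.56 to 13.61 in supernatant and 13.55 to 13.60 in media.

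Genes linked with alternative activation, the state that IL-4 gives macrophages, had 6 of 27 measured members higher and 5 lower. Mrc1, the mannose receptor, read 9.36, 9.17, 8.81 and 8.97 in media and 6.64, 5.86, 7.95 and 7.67 in supernatant, a fall of 2.05 ± 0.37 (adjusted p = 0.00213). Fn1, fibronectin, fell by 1.63 ± 0.13 and Pparg, the lipid-sensing nuclear receptor, by 1.53 ± 0.29. Tgm2, a transglutaminase, rose by 1.74 ± 0.19 and the lectin Mgl2 by 1.23 ± 0.16. Retnla differed by −1.30 ± 0.46 and was not called (adjusted p = 0.0759), but was without supernatant replicate 4 (−1.79, adjusted p = 0.00312), with the replicate block (0.0265), with the 2-level block of replicates 1-2 and 3-4 (0.0154), in the fit over 24 arrays (0.0105), with array weights (0.0225) and within replicates 1 and 2 (0.0152). Chil3, a chitinase-like secreted protein, differed by 0.01 over all 8 arrays, by 0.84 within replicates 1 and 2 and by −0.81 within replicates 3 and 4. The members of this list did not share a direction.

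Of 24 Toll-like receptors, adaptors and cofactors 10 rose and 0 fell in limma, with 2 lower at an unadjusted p under 0.05; 1 was called lower without supernatant replicate 3, with array weights and within replicates 3 and 4. Among the rises were Cd180 up by 1.68 ± 0.16, Tlr1 by 1.65 ± 0.16, the double-stranded RNA receptor Tlr3 by 1.63 ± 0.16 and the CpG DNA receptor Tlr9 by 1.37 ± 0.23. The receptor of lipoproteins Tlr2 (0.28) and the endotoxin coreceptor Cd14 (−0.47) were not called. Of 20 cytosolic sensor and inflammasome genes 14 rose and 0 fell. Zbp1, a sensor of Z-form nucleic acid, read 6.61, 7.15, 6.71 and 6.50 in media and 10.61, 10.73, 10.94 and 10.94 in supernatant, a rise of 4.06 ± 0.14. Ifi209 rose by 3.10 ± 0.11, the peptidoglycan sensor Nod1 by 2.50 ± 0.10 and Casp4, the caspase that senses endotoxin in the cytosol, by 2.14 ± 0.10. Casp1 and Nlrp3 rose by 1.64 and 1.04.

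Of 27 NF-kappaB subunits, feedback inhibitors and targets 20 rose and 0 fell, with a median of 0.65. Ptgs2, the inducible cyclooxygenase, rose by 3.12 ± 0.23, complement factor Cfb by 2.78 ± 0.17, the siderophore-binding protein Lcn2 by 2.11 ± 0.15 and the inhibitor Nfkbie by 1.58 ± 0.23. Within replicates 1 and 2 the median difference of the list was 0.85, and within replicates 3 and 4 it was 0.48, where 12 members were called. In the arachidonic acid pathway the enzymes were divided: Pla2g4a, which frees the fatty acid, rose by 1.62 ± 0.09 with Ptgs2, whereas the leukotriene enzymes Alox5 and Ltc4s fell by 1.77 ± 0.13 and 1.5 ± 0.09. Of the 18 members of that list 2 rose and 5 fell. Genes of cell death and necroptosis had 13 of 23 higher and 1 lower, among them the executioner of necroptosis Mlkl (2.29 ± 0.10) and the caspase inhibitor Cflar (1.52 ± 0.11); the proapoptotic Bcl2l11 fell by 1.34.

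Uptake receptors changed in both directions. The high-affinity IgG receptor Fcgr1 read 8.98, 9.30, 9.33 and 8.79 in media and 10.99, 10.53, 11.64 and 11.46 in supernatant, a rise of 2.06 ± 0.22, and Fcgr4 rose by 2.08 ± 0.30, while the inhibitory Fcgr2b fell by 0.58. Of 24 Fc receptor and complement genes 8 rose and 3 fell. Of 36 scavenger receptors, lectins and uptake receptors 6 rose and 11 fell, with the sialic acid receptor Siglec1 up by 2.80 ± 0.17, the glycolipid receptor Clec4e up by 2.27 ± 0.23 and the scavenger receptors Marco and Colec12 down by 1.70 ± 0.27 and 1.35. Lysosomal genes had 3 of 27 higher and 9 lower. Ctsc, which activates serine proteases of granules, rose by 1.35 ± 0.09, and the collagen-degrading Ctsk and the lysozyme Lyz1 fell by 1.35 ± 0.17 and 1.25 ± 0.15. Matrix genes were divided as well, with 5 of 25 higher and 6 lower, including the growth factor Hbegf (1.72 ± 0.22) and the urokinase Plau (1.39 ± 0.11) up and the protease inhibitor Timp2 down by 1.53 ± 0.11.

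Cholesterol synthesis genes fell together, with 1 of 20 measured members higher and 15 lower (median −0.60). Hmgcs1, an early enzyme of the pathway, read 9.13, 9.22, 9.07 and 9.23 in media and 8.05, 8.06, 8.43 and 8.10 in supernatant, a fall of 1.00 ± 0.10 (adjusted p = 2.8e-05). Idi1 fell by 0.92 ± 0.13, Sqle by 0.82 ± 0.13, the sterol carrier Stard4 by 1.04 ± 0.10 and Srebf2, the transcription factor of the pathway, by 0.47. Ch25h, which makes 25-hydroxycholesterol, an oxysterol known to restrain that factor, read 7.73, 6.05, 6.10 and 5.96 in media and 9.14, 8.88, 9.75 and 9.43 in supernatant and rose by 2.84 ± 0.34. Of 25 genes of lipid efflux, storage and fatty acid metabolism 10 fell and 1, Ch25h, rose (2 without media replicate 4). Beside Apoe, the fatty acid binding protein Fabp4 fell by 1.61 ± 0.35, and Pltp, Plin2 and the cholesterol exporter Abca1 by 0.74, 0.60 and 0.58. In the fit over all 24 arrays, whose error is wider, 9 cholesterol and 3 lipid genes were called lower.

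Glycolysis genes rose, with 13 of 22 measured members higher and 2 lower (median 0.38). Hif1a, a hypoxia-inducible factor known to induce genes of this pathway, read 10.79, 10.64, 10.82 and 10.82 in media and 12.41, 12.53, 11.83 and 11.81 in supernatant, a rise of 1.38 ± 0.16. Its part in the rises of the list was not tested. The hexokinase Hk3 rose by 1.30 ± 0.08 and the regulatory enzyme Pfkfb3 by 1.02 ± 0.15, and Aldoc fell by 0.88 ± 0.09. The changes of the list were small, 3 of the 13 reaching 2-fold, and 5 were called within replicates 3 and 4 or in the fit over 24 arrays. The 2 falls became 1 without supernatant replicate 1 or 4 or media replicate 2, 3 or 4 and with the replicate block, and 0 in the fit over 24 arrays. In the tricarboxylic acid cycle and complex I list 2 of 32 rose (1 without media replicate 3) and 6 fell, with the isocitrate dehydrogenases Idh1 and Idh2 down by 0.87 ± 0.10 and 0.80 ± 0.10 and fumarase Fh1 by 0.70 ± 0.09. The rises of this list were near the 7.77% called higher over all genes tested. Hif1a and its relative Epas1 changed in opposite directions.

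Mitosis genes fell, with 22 of 29 measured members lower and 0 higher in limma (0 at an unadjusted p under 0.05; median −1.18), but their arrays spread widely within the groups. Ccna2, a cyclin of S phase and mitosis, read 6.38, 8.07, 8 and 8.59 in media and 4.14, 5.54, 4.84 and 6.51 in supernatant, a fall of 2.50 ± 0.51 (adjusted p = 0.0049). Mki67, a marker of cycling cells, read 6.13, 7.53, 7.45 and 7.74 in media and 5.47, 5.80, 5.47 and 6.30 in supernatant, a fall of 1.45 ± 0.31. In both genes media replicate 1 lay below the highest treated array, supernatant replicate 4. The median deviation of the list from each gene's mean was −0.27 in media replicate 1 and 0.72 to 1.18 in the other media arrays, against −1.02 to −0.17 in the treated arrays. In 10 of the 29 genes the groups did not overlap. Without media replicate 1, 27 of the 29 were called lower; within replicates 1 and 2, 9 were. DNA replication genes had 2 of 29 higher and 5 lower, and the 5 were not stable: leaving out an array gave between 1 and 9, with 1 left without supernatant replicate 1 or 2 or media replicate 2 or 4, 2 without media replicate 3, 8 without supernatant replicate 4 and 9 without media replicate 1. The share of rises was near the 7.77% called higher over all genes tested. Ccne1, a cyclin of the entry into S phase, rose by 0.88 ± 0.09. Rrm2, a ribonucleotide reductase subunit, was called lower by 1.27 (adjusted p = 0.0307), a call that was lost on leaving out each of 6 arrays, all but supernatant replicate 4 and media replicate 1 (adjusted p from 0.0737 to 0.0921).

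**Figure D3:**
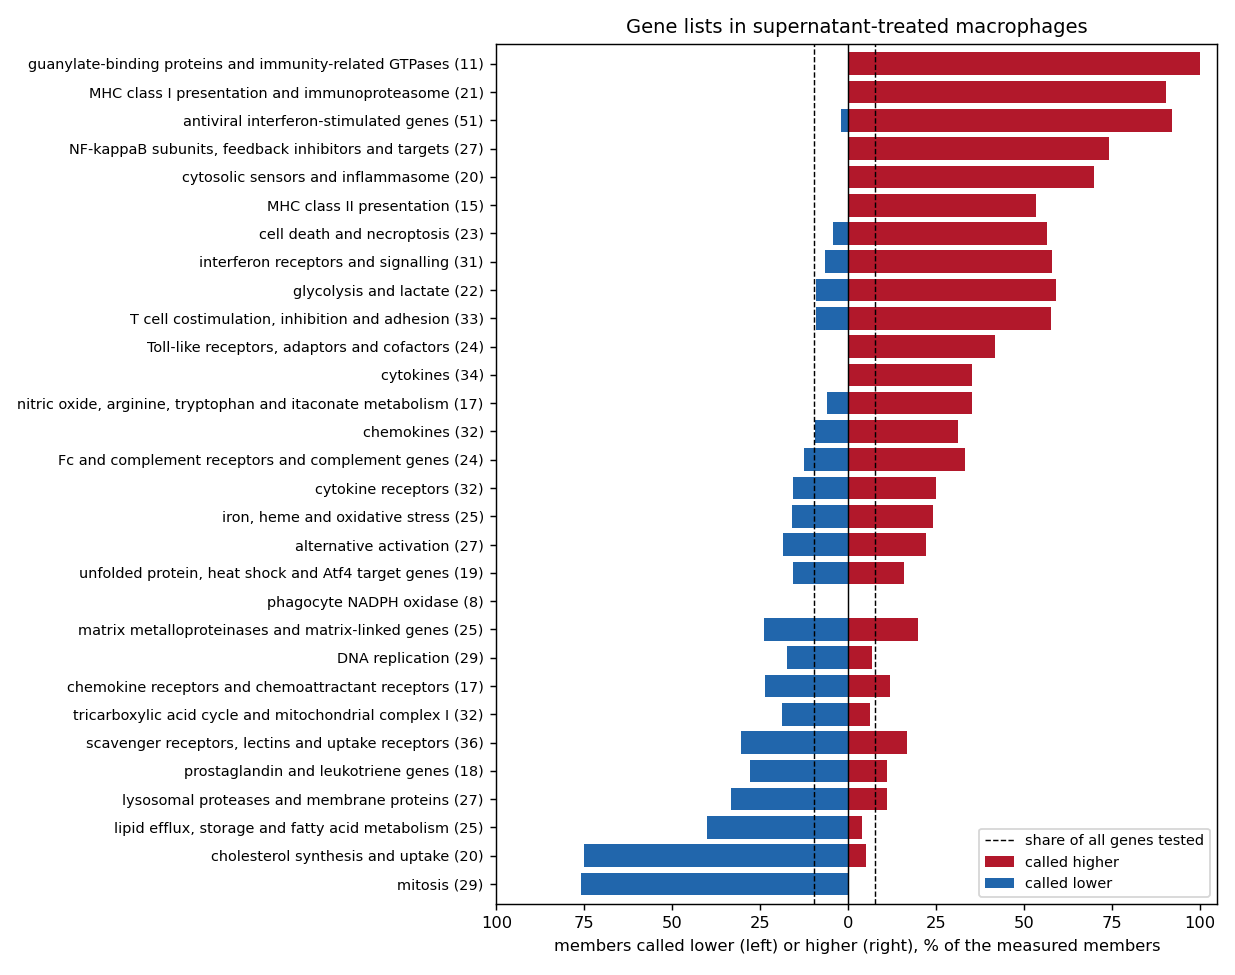
Each bar is the share of a gene list's measured members (number in parentheses) called higher (red, right) or lower (blue, left) in supernatant-treated macrophages; the x axis is in percent. The dashed lines mark the shares over all 19938 genes, 7.77% higher and 9.79% lower. All 11 measured GTPase genes rose and 22 of 29 measured mitosis genes fell.

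Of the 7 lists with a rise and 0 falls in limma, 3 of 152 members were lower at an unadjusted p under 0.05. These lists were picked for their 0 falls in the same fit, so a low count here follows in part from that choice. Other lists moved less. Iron, heme and oxidative stress genes had 6 of 25 higher and 4 lower, with the mitochondrial superoxide dismutase Sod2 up by 1.14 ± 0.14, the cystine transporter Slc7a11 up by 0.86 ± 0.21 and the iron exporter Slc40a1 down by 0.80 ± 0.14. The unfolded protein, heat shock and Atf4 list had 3 of 19 higher and 3 lower. Its largest rise, Psat1 (0.77, adjusted p = 0.0363), lost the call without supernatant replicate 1, 2 or 3 or media replicate 3 or 4 (0.0588 to 0.0988), and the count of rises then fell to 1. Ddit3, a stress-induced transcription factor, rose by 0.75 ± 0.12 and the degradation factor Herpud1 fell by 0.62 ± 0.11. Markers of GM-CSF grown and alveolar-type cells had 3 of 13 higher and 5 lower, with Car2 and Il1rn up by 2.10 and 2.00 and Marco, Fabp4, Pparg and Siglecf down by 1.70, 1.61, 1.53 and 1.15. Dendritic cell markers had 3 of 15 higher and 2 lower (Bst2 up by 2.81, Cd24a down by 1.90), with mean levels of 6.15 to 6.52 in supernatant and 5.93 to 6.23 in media; the rises numbered 5 without supernatant replicate 3 and 1 within replicates 3 and 4. Neutrophil markers had 2 of 14 higher and 1 lower, with Ly6g at 4.24 to 5.59 in supernatant and 3.07 to 3.51 in media, and the granule genes Elane and Mpo not called. B cell markers had 0 of 9 higher (1 at an unadjusted p under 0.05) and 1 lower, mast cell, basophil and eosinophil markers 0 of 16 higher (3 at an unadjusted p under 0.05) and 1 lower, and stromal and endothelial markers 2 of 15 higher and 4 lower, with Kdr up by 1.78 and Vwf down by 1.97. Without supernatant replicate 3, 1 T and NK cell marker and 2 mast cell, basophil and eosinophil markers were called higher. Without media replicate 1, 1 epithelial marker was, without media replicate 2 or 3, 1 mast cell, basophil or eosinophil marker was, and the rises of stromal and endothelial markers became 1 without supernatant replicate 1 or 4 or media replicate 1 or 4. The part of such cells in the results was not tested.

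Treated replicates 1 and 2 stood apart from treated replicates 3 and 4 in some genes. Limma called 158 genes between these pairs in supernatant (0.792%), 80 higher and 78 lower in replicates 3 and 4; with arrays centred on their medians these were 140 and 71. In media it called 0 (0%), with 1106 genes at an unadjusted p under 0.05. Il33, an alarmin of the IL-1 family, read 8.07, 7.91, 6.19 and 6.04 in supernatant and 3.64 to 3.91 in media. Its relative Il1f9 read 10.31, 10.60, 8.35 and 8.83 in supernatant and 5.30 to 6.29 in media. Both rose in each pair, Il33 by 4.22 within replicates 1 and 2 and 2.37 within 3 and 4, and Il1f9 by 4.28 and 2.89. Nos2 and Hif1a were also higher in treated replicates 1 and 2 than in 3 and 4. Mrc1, Pparg, Fabp4, Epas1 and Tmem273, which fell, were lower there: Pparg read 4.92, 4.96, 6.15 and 6.25 in supernatant against 6.77 to 7.35 in media. The monocyte attractants Ccl7 and Ccl12 went the other way, with Ccl7 at 6.69, 6.47, 8.85 and 8.44 in supernatant and 4.74 to 5.46 in media, and Ccl12 at 4.37, 4.73, 6.92 and 6.21 and 3.50 to 3.76.

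Cxcl3 had the largest split, at 9.15, 9.35, 6.78 and 5.55 in supernatant and 6.52 to 7.20 in media. Within replicates 1 and 2 the supernatant changed 2588 genes and within 3 and 4 it changed 2183, and 1480 were called in both in the same direction and 11 in opposite directions. The test of whether the response itself differed between the pairs called 28 genes. The labels do not say what the replicate numbers stand for, and the pairs were known to part from earlier results of these data.

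**Figure D4:**
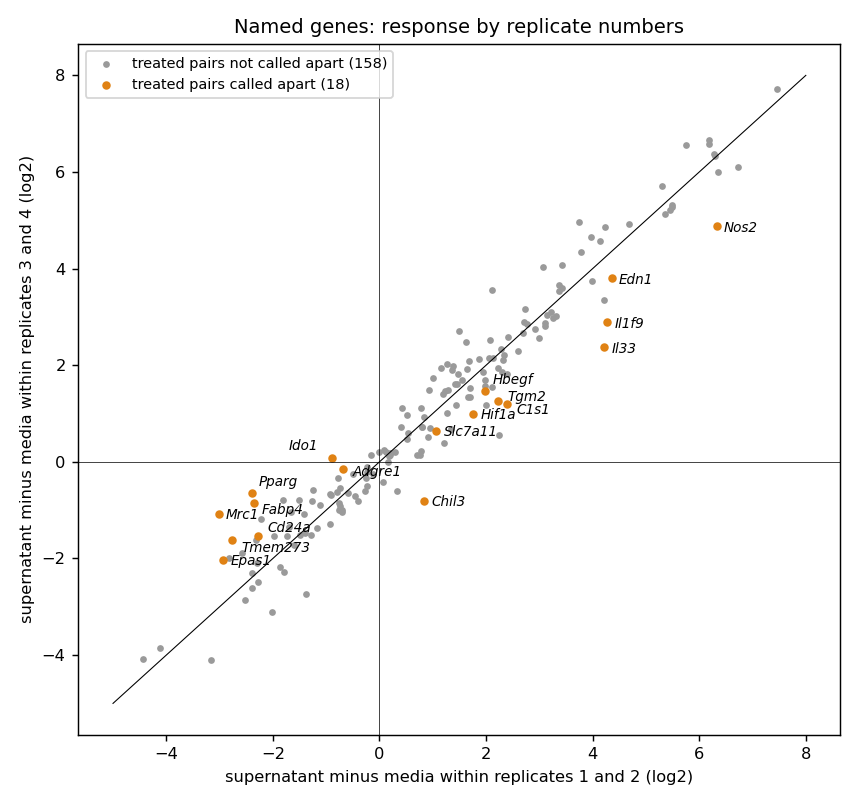
Each point is a named gene, placed by its response (supernatant minus media, log2) within replicates 1 and 2 (x axis) and within replicates 3 and 4 (y axis); the diagonal marks equal responses. Orange points (18) were called between the treated pairs, grey points (158) were not. Nos2, Il33 and Il1f9 lie below the diagonal and Mrc1, Pparg and Epas1 above it; Chil3 changes sign.

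The response differed from that of both epithelial lines in 1611 genes (8.08%), tested as the macrophage difference minus the mean difference of both lines over all 24 arrays. It was higher in macrophages for 759 genes (3.81%) and lower for 852 (4.27%). The genes with the largest excess in macrophages were Ms4a4c, Ms4a6b, Ms4a6c, Edn1, Slfn1 and Gbp2b. Ms4a6c read 5.38 to 6.56 in media and 10.66 to 11.45 in supernatant in macrophages and 2.86 to 3.27 in all arrays of both lines, and the responses differed by 5.31 ± 0.22 (adjusted p = 1.58e-13). Edn1, the vasoconstrictor endothelin, rose by 4.08 in macrophages to a level of 7.88 to 8.79, and differed by −1.26 in C57epi.1 and −0.23 in Bm12.4, which held 8.41 to 9.90 of it in media. Slfn1 rose by 5.34 in macrophages, 2.38 in C57epi.1 and 0.21 in Bm12.4.

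In the T cell costimulation, inhibition and adhesion list the response was higher in macrophages for 11 of 33 genes and lower for 3, and among cytokines it was higher for 6 of 34 and lower for 4. Other lists went the other way. The response was higher in macrophages for 7 of 51 antiviral interferon-stimulated genes and lower for 19. It was higher for 2 of 11 guanylate-binding proteins and immunity-related GTPases and lower for 5. For 15 class II presentation genes the counts were 2 and 7, and for 29 mitosis genes 0 and 9. Over all genes tested the shares were 3.81% higher and 4.27% lower. Cd40 and Cd86 rose by 3.17 and 2.68 in macrophages and differed by −0.32 and −0.07 in C57epi.1 and by −0.09 and −0.07 in Bm12.4, so that the responses differed by 3.37 ± 0.13 and 2.75 ± 0.13. For Tnf, Il12b and Il27 the responses differed by 1.82 ± 0.26, 2.19 ± 0.25 and 1.27 ± 0.17, and none of the 3 was called in either line. Pdcd1lg2 differed by 2.04 ± 0.15. Il6 showed the reverse, with rises of 2.10 and 2.09 in the lines and an uncalled 0.20 in macrophages (−1.90 ± 0.25).

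The genes with the largest shortfall in macrophages were Mpeg1, Ms4a4d, Apol10b, Trim30a, Mamdc2 and Cd74, and they were of different kinds. Mpeg1, a pore-forming protein of phagocytes, read 12.62 to 12.90 in macrophages in media and 12.93 to 13.09 in supernatant (0.25, not called in the main fit). In macrophages it was called higher with the 2-level block of replicates 1-2 and 3-4 (adjusted p = 0.0389) and with a mean-variance trend (0.0284). It was also called among only genes at log2 6 or more in 4 or more arrays (0.0444). In the lines Mpeg1 rose from 3.58 to 3.96 to 10.22 to 10.43 in C57epi.1 and from 3.90 to 5.07 to 10.41 to 10.91 in Bm12.4. Cd74 rose by 5.09 and 4.32 in the lines to at most 10.79, below every macrophage array, and H2-Ab1 by 3.03 and 4.81 to at most 10.04. Ciita rose by 2.39 and 2.22 in the lines to 6.42 to 6.90, still below its 7.02 to 7.37 in macrophages in media, and Cd274 by 4.84 and 4.33 to at most 9.15, against 11.02 to 11.22. Apol10b and Ms4a4d were otherwise: both were at 3.63 to 4.05 in macrophages in media, and they rose by 4.82 and 5.93 in C57epi.1 and 5.01 and 5.18 in Bm12.4 while in macrophages Ms4a4d rose by 0.76 and Apol10b was not called (0.15). Mamdc2 read 3.25 to 3.83 in all arrays of the lines and fell in macrophages. The media arrays of the lines spread further than those of macrophages for some of these genes (Trim30a from 4.17 to 6.76 and Cd74 from 4.74 to 7 in Bm12.4), and this spread enters the error of every gene of the 24-array fit. Within each pair of replicate numbers all 12 genes with the largest differences kept their direction, with Cd74 at −4.41 and −4.16. They were chosen for the size of this difference over the same arrays, so their direction within the pairs was largely set by that choice.

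Several leading genes of the response were not called different from the lines. Iigp1 rose by 7.59 in macrophages, 7.53 in C57epi.1 and 6.40 in Bm12.4, and the responses differed by 0.62 ± 0.56 (adjusted p = 0.61). Gbp5 rose by 6.17, 6.18 and 5.63 (0.27 ± 0.18), Cxcl9 by 6.39, 7.11 and 4.78 (0.44 ± 0.28), Irf7 by 5.39, 5.40 and 4.05 (0.67 ± 0.81) and Tap1 by 2.84, 2.33 and 3.46 (−0.06 ± 0.25). A p that misses the threshold does not show that these responses were alike, and the standard errors of Iigp1 and Irf7 were the widest of these 5. Irf1 rose more in macrophages than in the mean of the lines (0.89 ± 0.21), but not against C57epi.1 alone (0.32, adjusted p = 0.495) or after quantile normalization of all 24 arrays (0.45, adjusted p = 0.258). Nos2 likewise exceeded the mean of the lines by 1.90 ± 0.41 and C57epi.1 alone by 0.69 (adjusted p = 0.449). Acod1 exceeded the mean by 0.85 ± 0.24 (adjusted p = 0.0248), and against Bm12.4 alone the sign turned (−0.32, adjusted p = 0.654). That call was also lost after quantile normalization of all 24 arrays (0.51, adjusted p = 0.191), within replicates 1 and 2 (0.63, adjusted p = 0.253) and without supernatant replicate 2 (adjusted p = 0.0561), media replicate 3 (0.0628) or media replicate 4 (0.0624). Cxcl10 rose less in macrophages than in the lines (−1.69 ± 0.29). The response of Ido1 was lower in macrophages as well (−1.55 ± 0.28), but Ido1 did not rise there. Its mean in macrophages was 4.63 in media and 4.23 in supernatant.

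**Figure D5:**
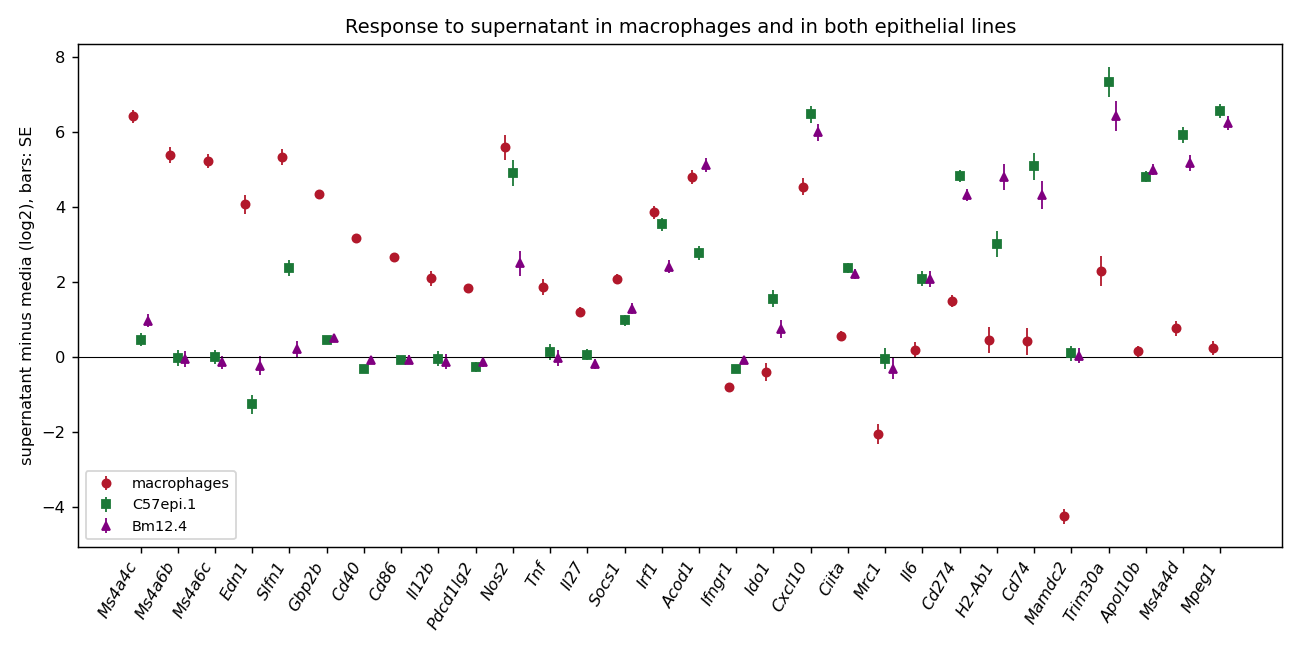
Response to supernatant (supernatant minus media, log2, y axis) of 30 genes in macrophages (red circles), C57epi.1 (green squares) and Bm12.4 (purple triangles), with standard errors from the 24-array fit as bars; the genes are the called members of the fixed list and the 6 largest differences each way, so all 30 were called for a difference between macrophages and the mean of the lines. Genes on the left rose more in macrophages, from Ms4a4c (5.71), and those on the right less, down to Mpeg1 (−6.16).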

How the data were processed

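The series held 28853 probe sets on 24 arrays, hybridised with biotin-labelled cDNA made from 100 ng of total RNA per the labels' protocols. The authors deposited 1 log2 value per probe set and array; GCOS, Partek 6.2 and RMA are named in the submitters' processing notes, with no order and no other version. RMA corrects background, aligns array distributions and summarises probes. No detection call was used, so low levels may be background, and for arrays the number of replicates limits the precision.

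Symbols came from the platform annotation: 21789 probe sets had 1 symbol, 1621 several and 5443 none. Of 999 genes with more than 1 probe set, the probe set with the highest mean over 24 arrays was kept, which left 19938 genes. The response was tested in limma 3.58.1 (R 4.3.3) on the 8 macrophage arrays (6 residual and 5.37 prior degrees of freedom), because the lines' media arrays were known from earlier results to spread further and would set its error. The difference from the lines was tested as an interaction over 24 arrays (18 residual and 3.62 prior degrees of freedom), and replicates 3 and 4 against 1 and 2 in a model of 4 groups of 2. Tests were two-sided, with Benjamini-Hochberg adjustment across 19938 genes, and a call is an adjusted p under 0.05. Differences are on the log2 scale with standard errors (SE), and per-array values are log2 levels, which were not compared between genes.

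Named genes were the 12 largest rises and falls with arrays that did not overlap (predicted and Riken genes passed over), up to 4 called members of each of 39 gene lists and members whose role the text needs, a fixed list of immune and marker genes, and the 6 largest response differences each way. A gene of that fixed list is not reported here. Replicate-split genes such as Cxcl3, Ccl7 and Ccl12 were chosen after their values were seen. The gene lists, members and tests were chosen with earlier results of these data known. Promoters are from RefSeq. The model was tested on simulated data. Same-numbered supernatant and media arrays did not deviate together (residual correlations 0.118, 0.037, −0.134 and 0.074), so the numbers were not used as pairs.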

Additional observations from a re-analysis of the deposited data

Results flagged for a closer look

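Of 352 groups of 4 arrays (176 named genes in 2 groups), 13 had an array that lay far from the other 3 by Dixon's test, where chance gives about 5%. In media these were replicate 1 of Gbp5 (4.58, others 5.00 to 5.07), of Casp4 (7.66, others 7.34 to 7.38) and of Ch25h (7.73, others 5.96 to 6.10). Replicate 2 stood apart for Ifit3 (5.44), Il6 (3.12), Gbp2b (4.33) and Hif1a (10.64), and replicate 3 for Edn1 (4.01). In supernatant they were Plau in replicate 1 (10.50), Hmgcs1 (8.43) and Prdx1 (12.70) in replicate 3, and Casp4 (9.38) and Sqle (6.84) in replicate 4. In none of these genes except Il6 did the array fall among the arrays of the other group.

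Of 176 named genes 109 were called for a difference in response (51 higher in macrophages, 58 lower). Over all genes tested the share was 8.08%, and the named genes were chosen in part for large differences in these same data. Given here are the called genes of the fixed list and the 6 largest differences each way. For these 30 named genes the response of macrophages differed from the mean response of both epithelial lines in the interaction test (log2, macrophages minus lines). Higher in macrophages were Ms4a4c (5.71), Ms4a6b (5.42), Ms4a6c (5.31), Edn1 (4.82), Slfn1 (4.04), Gbp2b (3.88), Cd40 (3.37), Cd86 (2.75), Il12b (2.19), Pdcd1lg2 (2.04), Nos2 (1.90), Tnf (1.82), Il27 (1.27), Socs1 (0.95), Irf1 (0.89) and Acod1 (0.85). Lower were Mpeg1 (−6.16), Ms4a4d (−4.79), Apol10b (−4.76), Trim30a (−4.58), Mamdc2 (−4.32), Cd74 (−4.29), H2-Ab1 (−3.47), Cd274 (−3.08), Il6 (−1.90), Mrc1 (−1.87), Ciita (−1.73), Cxcl10 (−1.69), Ido1 (−1.55) and Ifngr1 (−0.59).

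Probe sets outside the gene table also changed. Of 5443 with no symbol, 453 were called (174 higher, 279 lower, 8.32%), and of 1621 with several symbols 290 were called (101 higher, 189 lower, 17.9%), against 17.4% of those with 1 symbol.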

How the results depend on the processing

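With 4 arrays a group, low signals without a detection call limit what can be said of genes such as Il6 and Il10. Of 157 called named genes, 130 kept their call and direction under every alternative run, 27 lost it under at least 1, and 6 lost it on leaving out 1 array. Leaving out 1 array gave 2842 to 3578 called genes, 1295 to 1509 higher and 1523 to 2069 lower, 405 to 430 higher and 222 to 285 lower at 2-fold, and for the response difference 1311 to 1632, 623 to 762, 688 to 870, 217 to 235 and 250 to 313.

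Within replicates 3 and 4 the supernatant called 2183 genes, 1011 of them lower, and the fit over 24 arrays called 1259 lower. The response difference within replicates 3 and 4 called 3317 genes (1647 higher, 1670 lower; 431 and 555 at 2-fold), within replicates 1 and 2 it called 476 lower at 2-fold, against C57epi.1 alone 343 higher at 2-fold and against Bm12.4 alone 488 higher; its fit within pairs leaves out the arrays of the other pair. Between the treated pairs of replicates, a mean-variance trend gave 289 genes (169 higher, 120 lower), centring 140 higher and the filter on dim genes 135 higher; these alternatives were chosen after seeing the data. Chil3 turned to −0.81 within replicates 3 and 4, and the response difference of Acod1 to −0.32 against Bm12.4 alone; the cause of these changes was not tested. With the replicate block, 3225 genes were called (44.1% higher, against 44.3%) and 1888 for the response difference; the numbers do not pair the arrays, and for 1 of the 4 numbers the treated array correlated best with the media array of its own number. Centring arrays on their medians gave 3161 calls, 52.9% of them higher.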

Other observations

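Among genes that no list held, Dock2, a regulator of leukocyte migration, read 7.84, 7.53, 10.21 and 10.07 in supernatant and 9.83 to 10.34 in media. Aldh1a2, an enzyme of retinoic acid synthesis, read 9, 9.61, 6.11 and 7.19 in supernatant and 7.25 to 7.91 in media. Neither was called for the supernatant over 8 arrays (adjusted p = 0.157 and 0.801, limma), and both were called between treated replicates 1 and 2 and treated replicates 3 and 4 (adjusted p = 0.000308 and 0.00524). Both were chosen after their values were seen.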
